A study of Homo sapiens with 3 samples.

Results

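SNORD50A and SNORD50B are a pair of box C/D small nucleolar RNAs (snoRNAs) made from neighbouring introns of SNHG5, a non-coding host gene on human chromosome 6. They were chosen by name, as the entries CDbox_U50 and CDbox_U50B, and are 2 of the 259 snoRNAs, and 2 of the 147 box C/D snoRNAs, counted in the data. The data are 3 small RNA libraries from HEK293, a long-established line of human embryonic kidney origin, grown in DMEM with foetal bovine serum. The labels name no treatment, and the libraries form 1 group. The comparisons are therefore between SNORD50A and SNORD50B, and between the pair and the other 145 box C/D snoRNAs, within each library. Per the labels' protocols, RNA came from a phenol/chloroform extraction, small RNA was enriched by a magnetic bead clean-up, and the Ion Total RNA-Seq Kit v2 served to build the libraries. The series asks whether snoRNAs, U3 in particular, are a source of microRNAs, so each deposited record gives the length of a read and its first and last position in the snoRNA besides its count. No label ties the libraries to separate cultures, so p-values measure only the library-to-library spread, which may be technical.

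Box C/D snoRNAs guide the methylation of the ribose in ribosomal RNA. The C box near the 5′ end and the D box near the 3′ end pair up into a kink-turn that binds the core proteins, an inner C′ and D′ pair repeats this arrangement less strictly, and the bases just upstream of a D or D′ box can pair with the target RNA. Intronic snoRNAs are freed when the spliced intron is debranched and trimmed back by exonucleases to the protein-covered snoRNA. SNORD50A and SNORD50B are also known for binding the K-Ras protein and for deletions of their locus in human cancers.

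Both sequences are shown whole because the ends of the reads are read against their boxes. They are from GRCh38, minus strand, and are printed 5′ to 3′ with the C box motif (TGATGA) and each D box motif (CTGA) in capitals. SNORD50A lies at chr6:85677294-85677368 (75 nt, intron 4 of 4 of the host transcript SNHG5-201) and SNORD50B at chr6:85677589-85677659 (71 nt, intron 3 of 4).
SNORD50A: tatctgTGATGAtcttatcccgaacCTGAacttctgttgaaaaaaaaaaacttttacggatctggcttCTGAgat
SNORD50B: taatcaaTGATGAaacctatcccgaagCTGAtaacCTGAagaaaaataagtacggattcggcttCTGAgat
SNORD50A starts 55 nt after the upstream exon and ends 102 nt before the downstream exon. For SNORD50B these distances are 135 and 96 nt, and 220 nt separate the pair. The highest positions reached by reads in the files were 75 in SNORD50A and 71 in SNORD50B, equal to the annotated lengths.

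In SNORD50A the C box motif spans positions 7 to 12, an inner CTGA spans 26 to 29 and the terminal CTGA spans 69 to 72, counted from 1 at the 5′ end. In SNORD50B the C box motif spans 8 to 13, inner CTGA motifs span 28 to 31 and 36 to 39, and the terminal CTGA spans 65 to 68. Of 122 box C/D snoRNAs with an annotated sequence, searched on the snoRNA's own strand, 80 (65.6%) held TGATGA, 87 (71.3%) held CTGA at 2 or more places and 56 (45.9%) held both. The sequences are identical in 57 of 79 aligned columns (72.2%). Their longest shared stretches are ggcttCTGAgat at the 3′ end (12 nt) and tatcccgaa just upstream of the first inner CTGA (9 nt). Since the shortest read in the files was 18 nt, no read that matched exactly could lie wholly in a shared stretch. A run of 11 A at positions 40 to 50 marks SNORD50A, and a run of this length or longer of 1 base was present in 2 of the 122 sequences (1.64%), SNORD50A included. The longest run in SNORD50B was 5 A at 42 to 46, and the median over the 122 sequences was 4 nt.

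SNORD50A was the scarcer of the pair in every library, and the scarcity lay in its full-length reads. SNORD50A had 15, 18 and 10 counts in libraries 1, 2 and 3, against 53, 36 and 101 counts of SNORD50B. As a share of all snoRNA counts, SNORD50A was at 0.0750%, 0.151% and 0.0524% (exact 95% Clopper-Pearson intervals 0.0420 to 0.124, 0.0892 to 0.238 and 0.0251 to 0.0963). SNORD50B was at 0.265%, 0.301% and 0.529% (0.199 to 0.347, 0.211 to 0.417 and 0.431 to 0.642). The 2 ranges over libraries did not overlap. The highest SNORD50A library was the second and the highest SNORD50B library was the third. Library totals were 19989, 11958 and 19092 counts. Intervals cover counting error only, because the reads carry no molecular identifiers and need not be independent molecules.

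The log2 ratio of SNORD50A to SNORD50B counts was -1.82, -1.0 and -3.34 in libraries 1, 2 and 3, and averaged -2.05 ± 1.19 (SD, n = 3). SNORD50B was thus 4.15-fold higher on average, or 4.38-fold per nucleotide of length. The ratio had the same sign in 3 of 3 libraries, and its size differed: SNORD50B exceeded SNORD50A 3.53-fold in library 1, 2.0-fold in library 2 and 10.1-fold in library 3. A two-sided exact permutation test that flips the signs over libraries gave p = 0.25, the smallest value that 3 libraries allow, so it records direction only. Without library 3 the mean log2 ratio was -1.41. Fewer cells with a snoRNA and less of it per cell cannot be told apart in such bulk libraries.

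Among 147 box C/D snoRNAs ordered by mean share, SNORD50A ranked 117 at 0.0926% ± 0.051 (SD, n = 3). Its neighbours were SNORD87 at 0.0944% and SNORD10 at 0.0875%, and neither differed from it beyond the SD. SNORD50B ranked 66 at 0.365% ± 0.14 (SD, n = 3), between SNORD99 at 0.367% and SNORD121A at 0.362%, again within the SD. The median box C/D snoRNA was at 0.332%, with quartiles of 0.125% and 0.784%. SNORD50A thus lay below the lower quartile and SNORD50B near the middle. The highest library exceeded the lowest 2.87-fold for SNORD50A and 2.0-fold for SNORD50B.

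**Figure D1:**
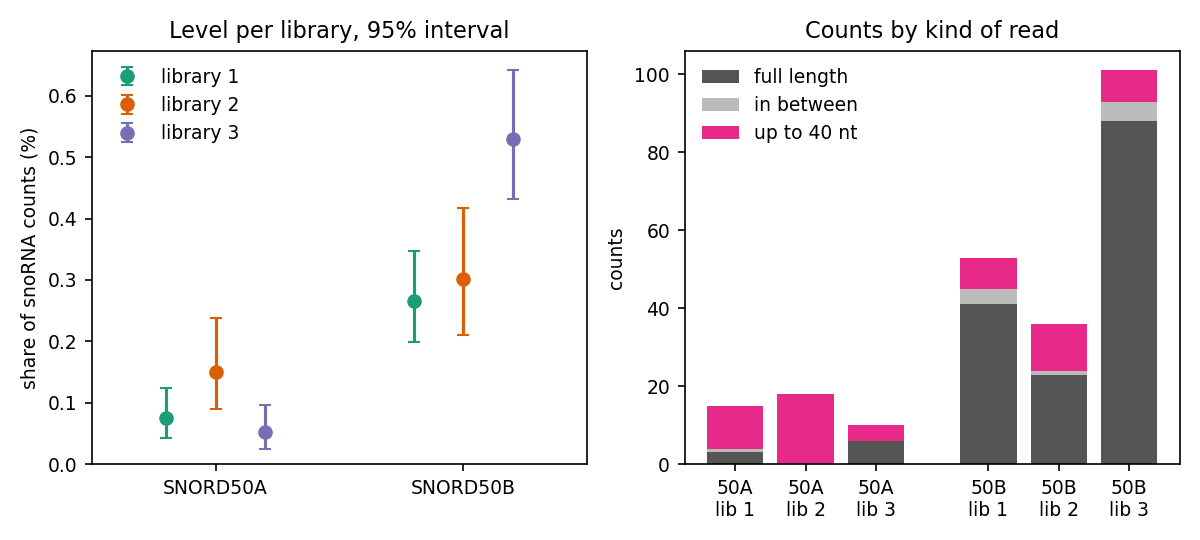
Left, the share of all snoRNA counts (percent) of SNORD50A and SNORD50B in each library, as points with exact 95% binomial intervals. Right, their counts per library divided into full-length reads (at least 90% of the snoRNA), reads up to 40 nt and reads in between: SNORD50B has 23 to 88 full-length counts per library and SNORD50A has 0 to 6, while both have 4 to 18 counts of short reads.

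Reads that spanned at least 90% of a snoRNA's length were called full length and reads of up to 40 nt short. The length was the highest position reached by any read, which equals the annotated length in the pair. In other snoRNAs it can differ, and their full-length shares and sides of reads rest on it. SNORD121A, for example, averaged 0% full-length and 7.02% short reads. SNORD50A had 3, 0 and 6 full-length counts in libraries 1, 2 and 3, against 41, 23 and 88 of SNORD50B. SNORD50B full-length counts were 13.7-fold higher in library 1 and 14.7-fold higher in library 3. In library 2, where SNORD50A had none, they were at least 7.67-fold higher, taking a floor of 3 counts in that library. Short reads showed no such order: SNORD50A had 11, 18 and 4 and SNORD50B had 8, 12 and 8. Counted from short reads alone, the mean log2 ratio of SNORD50A to SNORD50B was 0.015 ± 0.88 (SD, n = 3). From full-length reads alone it was -4.40, with 0.5 added to both counts in library 2, where SNORD50A had none.

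Most SNORD50A reads were therefore short, and most SNORD50B reads covered the whole snoRNA. Short reads made up 73.3%, 100% and 40% of SNORD50A counts (exact 95% intervals 44.9 to 92.2, 81.5 to 100 and 12.2 to 73.8). In SNORD50B they made up 15.1%, 33.3% and 7.92% (6.75 to 27.6, 18.6 to 51.0 and 3.48 to 15). Within each library the SNORD50A share was the higher, and the lowest SNORD50A library lay above the highest SNORD50B library. Summed over libraries, 33 of 43 SNORD50A reads (76.7%) and 28 of 190 SNORD50B reads (14.7%) were short. Full-length reads made up 20%, 0% and 60% of SNORD50A counts, where 0 of 18 reads allows a share of up to 16.7% by the floor of 3 counts and 18.5% by the exact interval, against 77.4%, 63.9% and 87.1% of SNORD50B counts.

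The odds of a short read were 19.6-fold higher in SNORD50A than in SNORD50B, with log2 odds ratios of 3.77, 6.18 and 2.93 (mean 4.29 ± 1.69, SD, n = 3, 0.5 added to each count). The odds of a full-length read gave log2 ratios of -3.57, -6.01 and -2.18 (mean -3.92 ± 1.94, SD, n = 3). Both had 1 sign in 3 of 3 libraries, with p = 0.25 by the two-sided exact permutation test, which is 0.25 after Benjamini-Hochberg adjustment over the 4 comparisons of the pair. Library 2, where SNORD50A had no full-length read, was also the library with the most short reads in general. In the other box C/D snoRNAs together, 11.5%, 25.1% and 11.5% of counts were short in libraries 1, 2 and 3, and 70.3%, 57.6% and 67.6% were full length. The part of this shift in the values of the pair was not tested. Without library 2 the mean log2 odds ratio was 3.35 for short and -2.87 for full-length reads, and without library 3 it was 4.98 and -4.79.

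**Figure D2:**
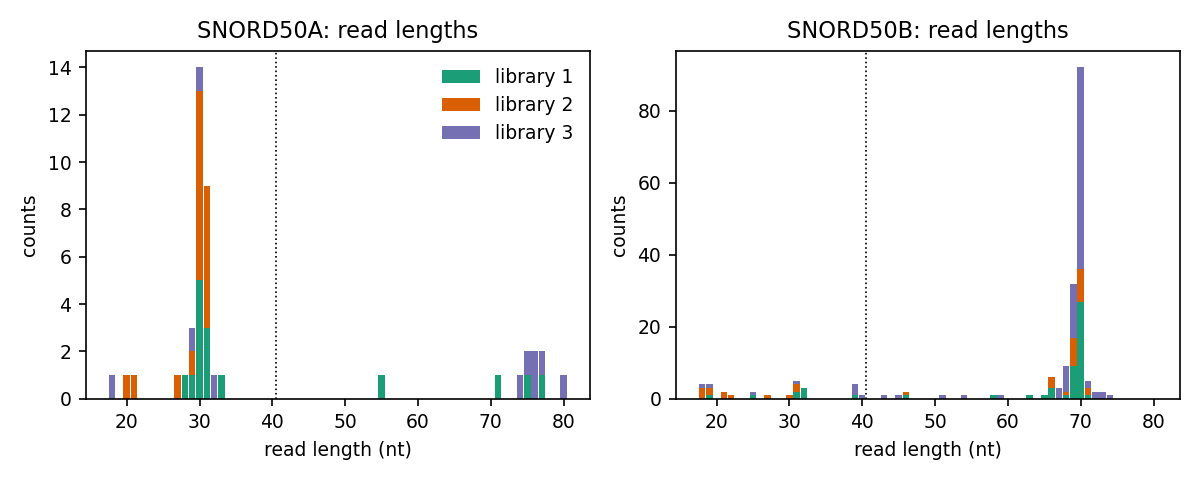
Read lengths (nt) of SNORD50A, left, and SNORD50B, right, as counts stacked by library; the dotted line marks the 40 nt limit of short reads. SNORD50A counts gather at 27 to 33 nt with few beyond 70 nt, and SNORD50B counts gather near 70 nt.

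Among the 108 box C/D snoRNAs that reached 10 counts in each library, SNORD50A had the second highest mean share of short reads, at 71.1% ± 30 (SD, n = 3), and the highest was 78.1%. SNORD50B ranked 41 at 18.8% ± 13, near the median of the other snoRNAs at 15% (quartiles 9.27% and 26.4%). Mean full-length shares were 26.7% ± 31 in SNORD50A and 76.1% ± 12 in SNORD50B (SD, n = 3 each), against a median of 70.3% over the others. Short reads were also set against longer reads for all snoRNAs in 1 fit (edgeR's quasi-likelihood test with Benjamini-Hochberg adjustment, library as a block), a comparison added after the read lengths had been seen. Short and longer reads were each scaled by their own library sizes in this fit. Its log2 ratios are therefore relative to the typical snoRNA and are not plain ratios of counts. It called 30 of 125 snoRNAs (24%) relatively richer in short reads, and the median log2 ratio was -0.049. SNORD50A was among them, with a relative log2 ratio of short to longer reads of 4.13 ± 0.58 (SE) and an edgeR adjusted p of 4.06e-10. It stayed called without any 1 library, at edgeR adjusted p of 2.91e-05, 0.000561 and 2.44e-08. SNORD50B was at 0.18 ± 0.52 (SE) with an edgeR adjusted p of 0.818, so its balance was not distinguishable from that of the typical snoRNA. In plain counts, 33 of 43 SNORD50A reads and 28 of 190 SNORD50B reads were short.

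**Figure D3:**
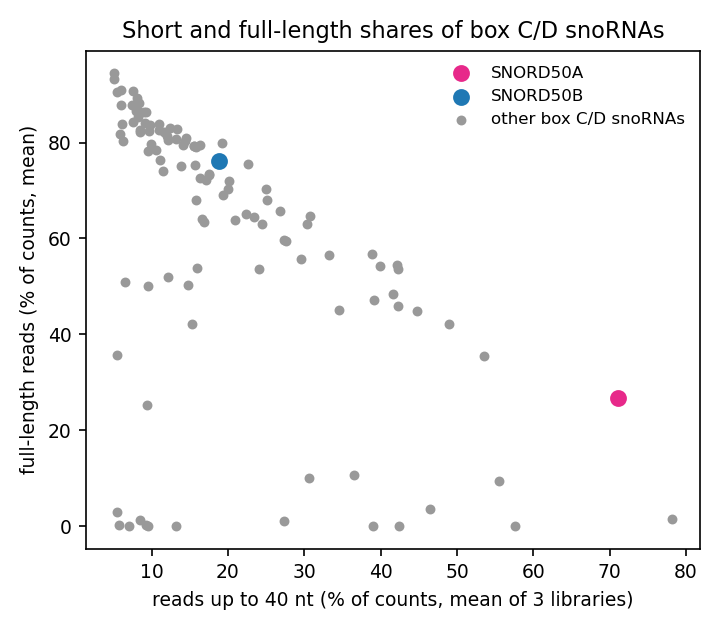
Mean share of short reads (percent of a snoRNA's counts, x axis) against mean share of full-length reads (y axis) over 3 libraries, for 108 box C/D snoRNAs with SNORD50A and SNORD50B marked. SNORD50A lies far right at 71.1% short and 26.7% full length, and SNORD50B lies in the main cloud at 18.8% and 76.1%.

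The short reads of SNORD50A were nearly all of 1 kind. They ran from the 5′ end to just past the inner CTGA, and 30 of 33 were 27 to 33 nt long. They ended at position 31 in 9 of 11, 16 of 18 and 2 of 4 short reads in libraries 1, 2 and 3 (27 of 33, 81.8%). They started at position 2 in 19 and at position 1 in 11. The leading form covered positions 2 to 31 (chr6:85677338-85677367, minus strand), with 5, 8 and 0 counts whose length equalled that span, and the next covered 1 to 31 with 3, 4 and 0 counts. Library 3, which had 4 short SNORD50A reads in all, held neither form, although 2 of its reads spanned 2 to 31 with a length that differed from the span. The commonest short reads of SNORD50B covered 3 to 33 (chr6:85677627-85677657, minus strand, 2, 2 and 1 counts), 2 to 20 (1, 2 and 1) and 2 to 19 (0, 3 and 1). The leading forms and the contrasting SNORD50B read at 2 to 20 are shown with the box motifs in capitals.
SNORD50A 2 to 31: atctgTGATGAtcttatcccgaacCTGAac
SNORD50B 3 to 33: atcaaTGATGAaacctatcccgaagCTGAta
SNORD50B 2 to 20: aatcaaTGATGAaacctat
The leading short read of either snoRNA thus held the C box, the stretch upstream of the first inner CTGA and that CTGA itself, and stopped 2 nt after it. In SNORD50B, 9 of 28 short reads ended at position 33 (5, 3 and 1 in libraries 1, 2 and 3) and the rest had other ends.

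Both modal ends, 31 in SNORD50A and 33 in SNORD50B, lay 2 nt after an inner CTGA that ends at 29 and at 31. The same distance was measured in 20 other box C/D snoRNAs, those with at least 10 short 5′ reads, an inner CTGA and a file length equal to the annotated one. In 13 of them the commonest end of short 5′ reads also lay 2 nt after an inner CTGA. Reads ending 0 to 4 nt after an inner CTGA made up 31 of 33 short 5′ reads in SNORD50A (93.9%, the highest of 22 snoRNAs), 11 of 23 in SNORD50B (47.8%, rank 11) and a median of 45% in the others. The snoRNAs after SNORD50A were SNORD57 at 87.2% and SNORD62A at 86.7%. The window was chosen after the ends of the pair had been seen, so these shares are a description.

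**Figure D4:**
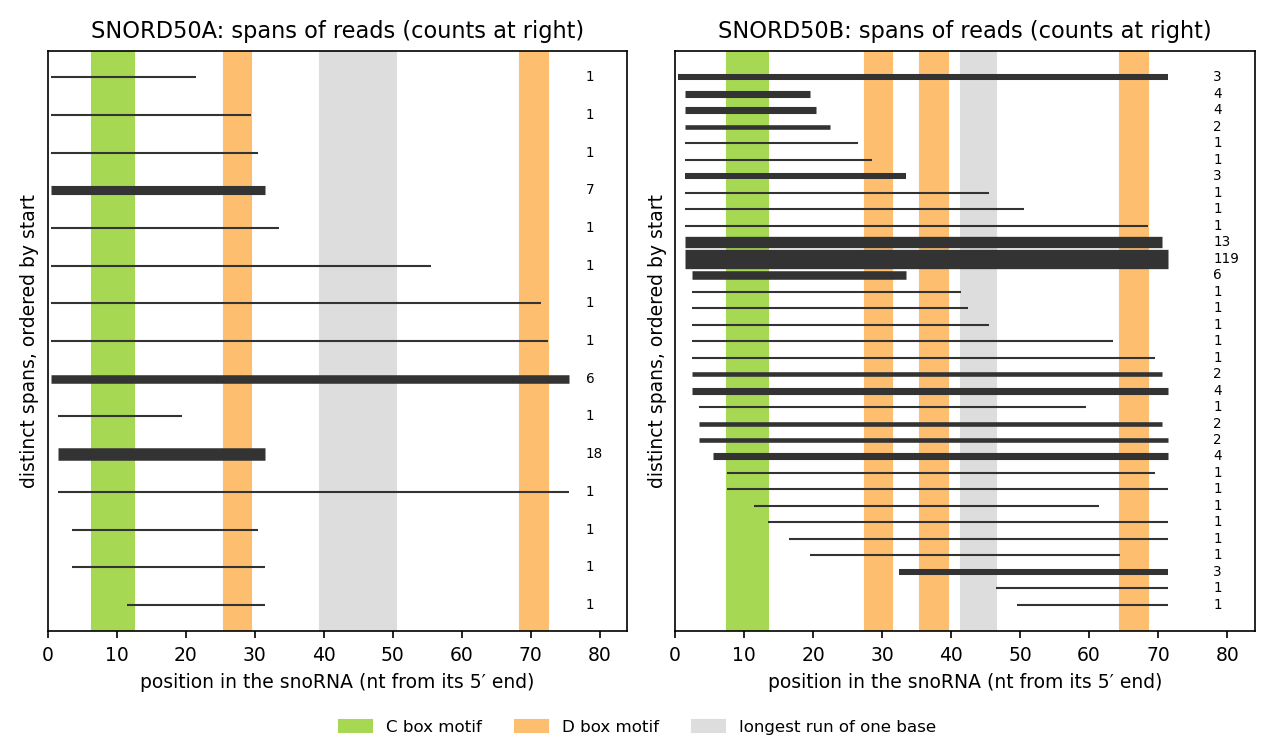
Each line is a distinct span of reads along SNORD50A, left, or SNORD50B, right, in nt from the 5′ end, with its counts over 3 libraries at the right and a thickness that grows with the log of the counts; bands mark the C box and D box motifs and the longest run of 1 base. SNORD50A spans stop mostly at position 31, after the inner D box motif and before the run of A at 40 to 50, and 119 of 190 SNORD50B counts span 2 to 71.

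All 33 short SNORD50A reads came from the 5′ side, and none (0, 0 and 0) from the 3′ side. For a floor of 3 counts over the libraries, 5′ reads were at least 11-fold more frequent. In the test of 3′ against 5′ short reads over all snoRNAs (edgeR, Benjamini-Hochberg), 22 of 133 snoRNAs (16.5%) were called for the 5′ side and 16 (12%) for the 3′ side. SNORD50A was called for the 5′ side, with a fitted log2 ratio of 3′ to 5′ reads of -6.45 ± 1.49 (SE), which depends on the prior count, and an edgeR adjusted p of 0.000283. The call was kept without library 1 (edgeR adjusted p = 0.0422). It was lost without library 2 (log2 ratio -5.92, edgeR adjusted p = 0.214) and without library 3 (log2 ratio -6.86, edgeR adjusted p = 0.224), where edgeR called no snoRNA at all.

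SNORD50B short reads were 23 from the 5′ side and 5 from the 3′ side (2, 1 and 2 in libraries 1, 2 and 3). All 5 ended at the last base, 71, and 3 of them started at position 33, where the leading 5′ form ends. This 3′ form covers the rest of the snoRNA, with the second inner and the terminal CTGA in capitals (chr6:85677589-85677627, minus strand).
SNORD50B 33 to 71: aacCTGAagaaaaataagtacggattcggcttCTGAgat
SNORD50B was not called, at a log2 ratio of 3′ to 5′ short reads of -2.08 ± 1.00 (SE) and an edgeR adjusted p of 0.110. The difference between SNORD50A and SNORD50B in this log2 ratio was -3.15, -2.27 and -1.79 in libraries 1, 2 and 3 (mean -2.40 ± 0.69, SD, n = 3, 0.5 added), with 3 of 3 libraries of 1 sign and p = 0.25 by the exact permutation test. These values rest on 0 and 5 reads of the 3′ side. In the other box C/D snoRNAs together, 65.6%, 51.1% and 57.5% of short reads were from the 5′ side.

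Reads of 20 to 24 nt, the usual size of microRNAs, were rare in both snoRNAs. SNORD50A had 0, 2 and 0 and SNORD50B had 0, 3 and 0, all in library 2. Counting from 18 nt, SNORD50A had 3 such reads over the libraries and SNORD50B had 11, 8 of them in library 2. No read of either snoRNA lay on the opposite strand.

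Full-length reads of SNORD50B were uniform at both ends. They started at position 2 in 133 of 152 counts (87.5%) and ended at position 71 in 133. The read from 2 to 71 with a length equal to its span had 27, 9 and 56 counts, and the read from 2 to 70 had 5, 1 and 5. The annotated first base was present in 3 of 152 full-length reads, 1 in each library. Of the 9 full-length SNORD50A reads, 8 started at position 1 (2, 0 and 6 in libraries 1, 2 and 3) and 7 ended at 75. The C box motif starts at position 7 in SNORD50A and at 8 in SNORD50B. Counted from it, position 1 of SNORD50A matches position 2 of SNORD50B, the usual start there. The SNORD50A start rests on these 9 reads. Short SNORD50A reads started at position 2 in 19 of 33, which is nearer to the C box motif.

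With reads of all lengths placed by their centre, edgeR called SNORD50B for the 3′ side, at a log2 ratio of 3′ to 5′ reads of 2.09 ± 0.61 (SE) and an edgeR adjusted p of 0.0231, as it did 29 of 108 snoRNAs (26.9%). A read from 2 to 71 is centred 0.5 nt past the middle of the snoRNA, so the missing first base places it there. The call was lost without library 3, which holds 101 of the 190 SNORD50B counts (log2 ratio 1.40, edgeR adjusted p = 0.167). SNORD50A had under 10 placed counts in a library and was not tested in this comparison.

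The SNORD50B read from 2 to 71 was listed in several records with the same length and ends. The first and second of them had 13 and 7 counts in library 1, 4 and 2 in library 2 and 25 and 19 in library 3. The second record thus held 35.0%, 33.3% and 43.2% of these leading 2 records. Its mean of 37.2% ranked 7 of 81 box C/D snoRNAs whose leading form had at least 3 counts in each library, where the median was 5.92%. The files give no read sequences, so what differs between the records is not known.

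Full-length SNORD50A reads rarely matched their span. In 8 of 9 (88.9%, exact 95% interval 51.8 to 99.7) the read length differed from the distance between its mapped ends, by -1 to 5 nt. The same held for 39 of 152 full-length SNORD50B reads (25.7%, 18.9 to 33.4) and for 6315 of 30879 in the other box C/D snoRNAs (20.5%). SNORD50A also had the longest run of 1 base among the 87 box C/D snoRNAs with a sequence and sufficient counts, 11 nt, followed by SNORD102 with 8 and SNORD57 with 7. Across these 87 snoRNAs, which share the 3 libraries, the longest run had a Spearman correlation of 0.494 with the mean share of reads whose length differed from their span and of -0.092 with the mean share of full-length reads. SNORD102 averaged 64.2% full-length reads and SNORD57 averaged 48.4%. The snoRNAs with runs of 6 nt were SNORD73A at 85.4%, SNORD12C at 68.1%, SNORD51 at 56.7% and SNORD91B at 42.2%. The median over box C/D snoRNAs other than the pair was 70.3%. Of the 33 short SNORD50A reads, 27 ended at 31 and none beyond 33, so none reached the run at 40 to 50. Whether matching of this run altered the number of full-length SNORD50A reads was not tested.

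The make-up of reads was compared as the shares of full-length, short 5′, short 3′ and other reads, by Euclidean distance to the 72 box C/D snoRNAs that reached 30 counts in each library. SNORD50A had 26.7% full-length, 71.1% short 5′, 0% short 3′ and 2.22% other reads on average. Its nearest among the 72 was SNORD21, at a distance of 37.3 percentage points with 35.5% full-length and 39.1% short 5′ reads. SNORD57 was next at 41.0 and SNORD44, hosted by GAS5, at 57.0. SNORD50B had 76.1% full-length, 15.9% short 5′ and 2.84% short 3′ reads. Its nearest snoRNAs were SNORD24 at 5.30 percentage points, SNORD42A at 5.54 and SNORD45A at 7.06. None of the 72 lay as near to SNORD50A as these lay to SNORD50B. SNORD105, which did not reach 30 counts in each library, was not among them. It averaged 78.1% short and 1.45% full-length reads. Like SNORD50A, SNORD105 was called for short reads (relative log2 ratio 4.23, edgeR adjusted p = 4.06e-10). It was also called for the 5′ side of short reads (-5.16, edgeR adjusted p = 6.91e-05). SNORD50A itself has under 30 counts in each library, so its own shares carry the wide intervals given with them.

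SNORD50A and SNORD50B were then set beside 10 other pairs of paralogous box C/D snoRNAs from 1 host gene. Their mean log2 ratio was -2.05 (first over second member), where the sign follows only the naming of the members. Larger in size were SNORD38A over SNORD38B at -5.37 and SNORD42A over SNORD42B at -2.69. The pairs of SNORD49, SNORD45 and SNORD88, given below, were also larger in size. The pair SNORD83A and SNORD83B was at -0.82, SNORD58A and SNORD58B at -0.50, and SNORD36A and SNORD36B at -0.32. Near equality was seen for SNORD1A and SNORD1B at 0.086 and for SNORD18A and SNORD18B at 0.12. The first member was higher in SNORD49A and SNORD49B (2.29), SNORD45A and SNORD45B (2.84) and SNORD88A and SNORD88B (3.57, with 1, 1 and 2 counts of SNORD88B). The median size of the log2 ratio over the 10 other pairs was 1.56. An unequal level within a pair was thus common in these libraries.

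**Figure D5:**
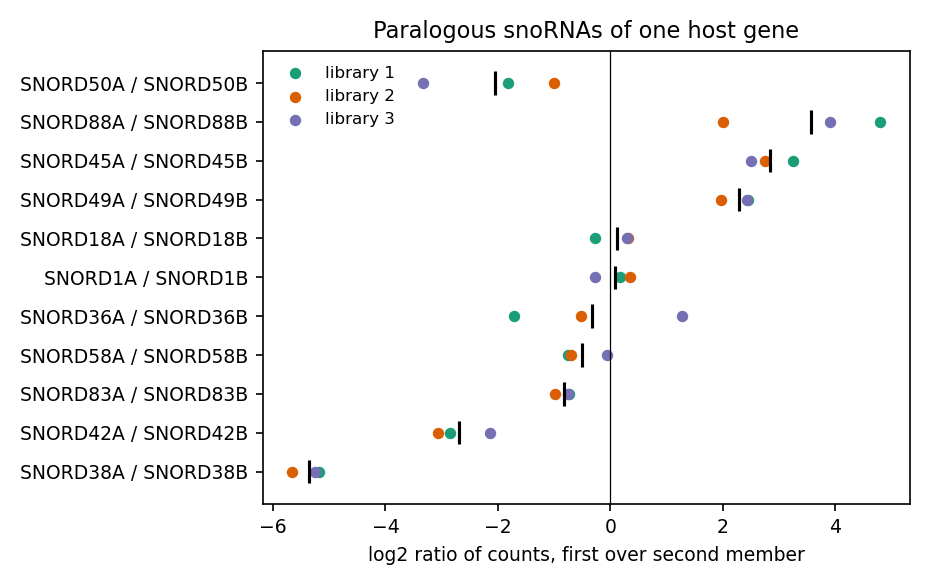
Log2 ratio of counts, first over second member, for 11 pairs of paralogous box C/D snoRNAs that share a host gene; points are libraries and the vertical bar is their mean. SNORD50A over SNORD50B lies at -3.34 to -1.0, with a spread over libraries of 2.34 that only the pairs of SNORD36 and SNORD88 exceed.

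The mean share of short reads was 52.3 percentage points higher in SNORD50A than in SNORD50B, the largest difference of the 11 pairs, given as a description with no test. It was 38.4 points for SNORD38A and SNORD38B, where SNORD38A had 16, 6 and 10 counts, and the median size over the 10 other pairs was 7.81 points.

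Other non-coding snoRNA hosts were GAS5, SNHG1, SNHG16, ZFAS1, SNHG29 and SNHG6, with 28 listed box C/D snoRNAs of which 27 were present. Their median mean share was 0.442% of library counts, and short reads had a median share of 21.7% in the 24 that reached 10 counts in each library. For the side of short reads, edgeR called 5 of 24 for the 5′ side and 4 for the 3′ side, beside 16.5% and 12% of all 133 snoRNAs tested, with a median log2 ratio of -0.32, against -0.50 over all. SNORD1B of SNHG16 (log2 ratio -4.76, edgeR adjusted p = 0.000688), SNORD44 of GAS5 (-4.01, 5.40e-11), SNORD47 (-2.65), SNORD12C (-2.51) and SNORD79 (-1.76) were called for the 5′ side. SNORD77 (3.23), SNORD81 (2.30), SNORD74 (1.90) and SNORD78 (1.61), all of GAS5, were called for the 3′ side. A host gene could thus hold snoRNAs of either side. For short against longer reads, relative to the typical snoRNA, edgeR called 8 of 24 for short reads and 4 for longer reads. Beside these stand 24% and 18.4% of all 125 tested. The median relative log2 ratio was 0.56, against -0.049 over all. For the side of all reads, edgeR called 11 of 23 for the 5′ side and 2 for the 3′ side, beside 39.8% and 26.9% of all 108 tested, with a median log2 ratio of -1.35, against -0.75 over all.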

How the data were processed

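The deposited files hold raw counts of reads, per the file headers, with the read length and the first and last position in the snoRNA (other values, in nt). The submitters' processing notes name GRCh38.p10 as genome build; the aligner, any trimming and any filter were not given in the sources used here. The series' table of counts was not used; it has 3 columns of per-sample values.

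Of 260 entries, 247 matched 1 symbol in a RefSeq gene table. Ends of the pair came from RefSeq (GRCh38.p14), exons and sequences from GENCODE 29 on GRCh38, the pair's sequence being cut from a longer SNHG5 transcript that keeps these introns. Shares are of each library's snoRNA counts (19989, 11958 and 19092), with exact 95% Clopper-Pearson intervals and a floor of 3 counts. Log2 ratios of levels used plain counts, with 0.5 added to both counts only where SNORD50A had no read. Log2 odds ratios and side differences of the pair had 0.5 added to each count. All comparisons of the pair used a two-sided exact sign-flip permutation test. Fits over all snoRNAs used edgeR 4.0.16 (quasi-likelihood, library as block, adjusted p under 0.05), with DESeq2 1.42.0 as alternative, in R 4.3.3. Each edgeR SE was derived, as the size of the log2 ratio divided by the square root of the test's F statistic. Shares and figures used Python 3.11.15. The fits were also run on simulated counts with a fixed spread and an even split of reads in unchanged snoRNAs. The real counts are sparse and skewed, so that run does not show how well the fits work on them. The side of short reads was tested for snoRNAs with at least 10 short counts over the libraries, the other 2 fits for those with at least 10 counts in every library.

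Besides the pair, snoRNAs were named as its neighbours in level, its 3 nearest in read make-up and pairs from 1 host gene. Called members of the list of non-coding hosts were also named. SNORD62A, SNORD102 and SNORD105, and the snoRNAs ranked with them, were named after their values were seen. The pair and the lists were chosen with earlier results of these data known.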

Additional observations from a re-analysis of the deposited data

How the results depend on the processing

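Of 97 alternative values, 8 counts of calls moved by over 1.5 times, 4 values changed sign and 3 calls were lost. The exact tests of the pair cannot pass the threshold in any setting, so for these only direction and size were compared. With each distinct record counted once, the mean log2 odds ratio of SNORD50A to SNORD50B was 3.17 for short reads and -2.64 for full-length reads; without gapped reads the full-length value was -5.11, and with short reads of up to 30 nt the short value was 3.39. From reads up to 40 nt alone, the log2 ratio of SNORD50A to SNORD50B was 0.015 (exact permutation p = 1), against -2.05 from all reads; leaving out 1 library gave -2.58 to -1.41. For the side of short reads, edgeR called 38 snoRNAs (49 at unadjusted p under 0.05) and DESeq2 called 20; leaving out 1 library gave 0 to 15. At 0 calls, 21 snoRNAs without library 2 and 23 without library 3 had an unadjusted p under 0.05, and DESeq2 was not run without a library. Leaving out 1 library gave -6.86 to -5.92 for SNORD50A in that comparison, and 1.40 to 2.90 for SNORD50B in the side of all reads. SNORD50A, untested there, was at -4.72 with no count minimum. For short against longer reads, edgeR called 53 snoRNAs, 30 with each distinct record counted once, 34 with short reads of up to 30 nt, and 26 to 40 without 1 library. The uncalled SNORD50B ratio of 0.18, relative to the typical snoRNA, changed sign to -0.28 and -0.17 under the first 2 of these. Without 1 library that ratio ranged from -0.13 to 0.68. SNORD50A could not be tested there with each record counted once or without gapped reads, having under 10 counts in a library. The causes were not tested. SNORD50A had 43 reads in all, which gives its shares wide intervals.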
